A study of Mus musculus with 4 samples.

Results

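The genes of the T cell receptor beta chain were taken as every gene whose symbol starts with Trbv, Trbd, Trbj or Trbc, which gave 53 of the 50600 genes counted. They were 35 variable (Trbv), 2 diversity (Trbd), 14 joining (Trbj) and 2 constant (Trbc) segments. The annotation calls 22 of the Trbv segments genes and 13 pseudogenes, and Trbj2-6 a pseudogene as well. RNA of mouse regulatory T cells (Treg), strain C57BL/6NJ, was sequenced in 4 libraries of 1 group, biological replicates 1 to 4, with no other genotype, treatment or cell type to compare with. The biosample records are separate and the donor record is 1 for all, so p-values here describe the spread between these libraries, and that spread may be technical. Age is unknown per the labels, and sex was not collected. Total RNA-seq is the assay title, but the name of the linked protocol speaks of poly(A)+ RNA. The linked documents include a protocol for differentiating CD4+ T cells, and the names of the samples in the file headers speak of activated, sorted cells at 72 h, a detail found in no label.

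The beta chain pairs with the alpha chain to form the receptor by which most T cells recognise peptides on MHC molecules. In the thymus, the Rag recombinase cuts beside 1 Trbd and 1 Trbj segment and joins them, then joins a Trbv segment to the product. Splicing links the finished V-D-J exon to Trbc1 or Trbc2. Each constant gene lies behind its own cluster, Trbd1 with the Trbj1 segments before Trbc1, and Trbd2 with the Trbj2 segments before Trbc2. A chain therefore usually carries the constant gene that follows the cluster of its joining segment. A T cell carries 1 productive beta chain as a rule, so a population of cells shows many Trbv segments side by side.

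In the mm10 build the members lie on chromosome 6 over 667.223 kb, from Trbv1 at 40891229 to the end of Trbv31 at 41558452. Trbv31 is the only member on the minus strand and lies beyond Trbc2, so that it joins by inversion. Stretches of 155.455 kb between Trbv1 and Trbv2 and of 251.211 kb between Trbv30 and Trbd1 hold no member. Trypsinogen genes lie in the second stretch.

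The following sequences are GENCODE M21 transcript sequence of the same build (GRCm38), written 5′ to 3′. For Trbv they are the last 45 bases of the segment, the end that meets D and J, for the segment with the highest level per base and its family members, for others the values below turn on, and for Trbv24, the pseudogene with the most counts. Capitals mark matches to TGTGCNAGC, which holds the codon of the conserved cysteine at which the third complementarity-determining region starts.
Trbv13-2: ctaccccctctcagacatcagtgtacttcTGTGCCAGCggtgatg
Trbv13-1: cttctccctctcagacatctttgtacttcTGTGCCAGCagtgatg
Trbv13-3: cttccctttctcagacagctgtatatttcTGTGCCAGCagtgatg
Trbv1: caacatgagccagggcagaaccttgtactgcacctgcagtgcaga
Trbv31: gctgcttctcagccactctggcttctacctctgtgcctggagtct
Trbv19: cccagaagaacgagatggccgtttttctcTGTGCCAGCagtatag
Trbv16: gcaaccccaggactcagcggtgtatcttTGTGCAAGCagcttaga
Trbv4: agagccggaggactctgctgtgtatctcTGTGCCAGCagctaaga
Trbv5: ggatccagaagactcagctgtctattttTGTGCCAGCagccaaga
Trbv24: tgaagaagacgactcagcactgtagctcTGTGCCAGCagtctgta
These letters were found in 17 of the 22 Trbv genes (77.3%) and in 4 of the 13 pseudogenes (30.8%), on the sense strand. Among the last 45 bases of 141693 transcripts of the annotation, 0.0769% held them on the sense strand and 0.122% on either. Trbv1, Trbv20, Trbv23, Trbv30 and Trbv31 are the genes in which they were not found, and they include segments of high and of low level.

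The 2 Trbd segments are the shortest members, and capitals mark their longest run of G.
Trbd1: gggacaGGGGGc
Trbd2: gggactGGGGGGGc
The Trbj segments are given whole, for those with the most counts, those that varied most between libraries, and the 3 without the motif. Capitals mark matches to a motif of TTNGG, any 4 bases and GG, which encodes the phenylalanine and glycines at the end of the third complementarity-determining region.
Trbj2-7: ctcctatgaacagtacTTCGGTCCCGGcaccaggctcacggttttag
Trbj1-5: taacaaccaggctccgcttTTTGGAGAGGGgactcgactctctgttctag
Trbj1-2: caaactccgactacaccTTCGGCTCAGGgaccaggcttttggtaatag
Trbj2-4: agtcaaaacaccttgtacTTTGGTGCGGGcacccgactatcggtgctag
Trbj1-6: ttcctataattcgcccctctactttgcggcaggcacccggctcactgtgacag
Trbj1-7: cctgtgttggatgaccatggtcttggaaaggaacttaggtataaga
Trbj2-6: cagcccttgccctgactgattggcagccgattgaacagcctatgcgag
The motif was found in 11 of 14 Trbj and in 46 of 60 alpha-chain joining (Traj) segments (76.7%). Over the first 50 bases of 141672 transcripts, 1.22% held it on the sense strand and 2.12% on either strand. A match or its lack says only which letters stand in the window.

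Trbc1 and Trbc2 encode almost the same domain. Over 521 coding bases they differed at 23 and were identical at 95.6%. Exon 1, which encodes the immunoglobulin domain, differed at 1 of 375 bases. Exon 2 differed at 3 of 18, exon 3 at 15 of 107 and the coding part of exon 4 at 4 of 21. The differences therefore lie mostly at the end of the gene, and coding bases 394 to 521 are given with differing bases in capitals.
Trbc1: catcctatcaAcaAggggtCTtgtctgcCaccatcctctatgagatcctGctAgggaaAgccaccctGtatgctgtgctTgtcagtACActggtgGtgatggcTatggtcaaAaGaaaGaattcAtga
Trbc2: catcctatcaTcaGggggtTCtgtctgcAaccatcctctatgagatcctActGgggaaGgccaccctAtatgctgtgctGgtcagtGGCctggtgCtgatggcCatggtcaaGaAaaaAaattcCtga
Of the windows of 50 bases in the exons of Trbc1, 41.1% also occur in Trbc2, and 44.0% of those of Trbc2 occur in Trbc1. Read pairs that fit both places were not counted, so the levels of both genes are uncertain and low by an amount that was not measured.

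Replicates 1 to 4 held 46044354, 72147632, 94983494 and 32648138 counted read pairs. Foxp3, the factor that defines Treg, stood at 463 ± 25.4 TPM (TPM being the level per exon length, scaled to the same sum in each library) and Cd4 at 557 ± 21.8 TPM (SD, n = 4). All 4 Treg and all 4 pan-T markers passed 1 TPM in every library. The summed TPM of the CD8 markers was 12.6 to 16.6 over the libraries, of the 3 gamma-delta markers in the files 2.71 to 3.93, of the NK markers 1.05 to 2.43 and of the myeloid markers 0 to 0.881. The CD8 sum was nearly all Cd8b1 (14.4 ± 2.09 TPM), while Cd8a stood at 0.332 ± 0.274 TPM with no count in replicate 4. Ncr1, a marker of NK cells, and S100a8, of myeloid cells, had no count. Of the B cell markers, Cd79b stood at 5.37 ± 1.02 TPM, Cd79a at 0.747 ± 0.194 TPM, and Ms4a1 had 0, 0, 3 and 1 counts. The part of other cells in the values below was not tested, and in bulk RNA fewer cells of a type and less RNA per cell cannot be told apart.

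Of the 53 members, 40 had a count in every library and 9 had none in any. The 53 together held 394 to 419 counts per 1000000 counted pairs (CPM) in the 4 libraries, with a mean of 401 ± 12.4 (SD, n = 4). The constant genes held 281, 269, 271 and 273 CPM, a narrow range. Trbv segments held 88.4, 105, 96.1 and 120 CPM, with replicate 1 lowest and replicate 4 highest. Trbj segments held 21.9 ± 1.55 CPM and Trbd segments 3.08 ± 0.271 CPM. These class sums are counts and are not adjusted for length. A pair that overlaps the exons of more than 1 gene is left out or given to the gene that takes both ends, and how many pairs spanned V and C or J and C was not measured.

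**Figure D1:**
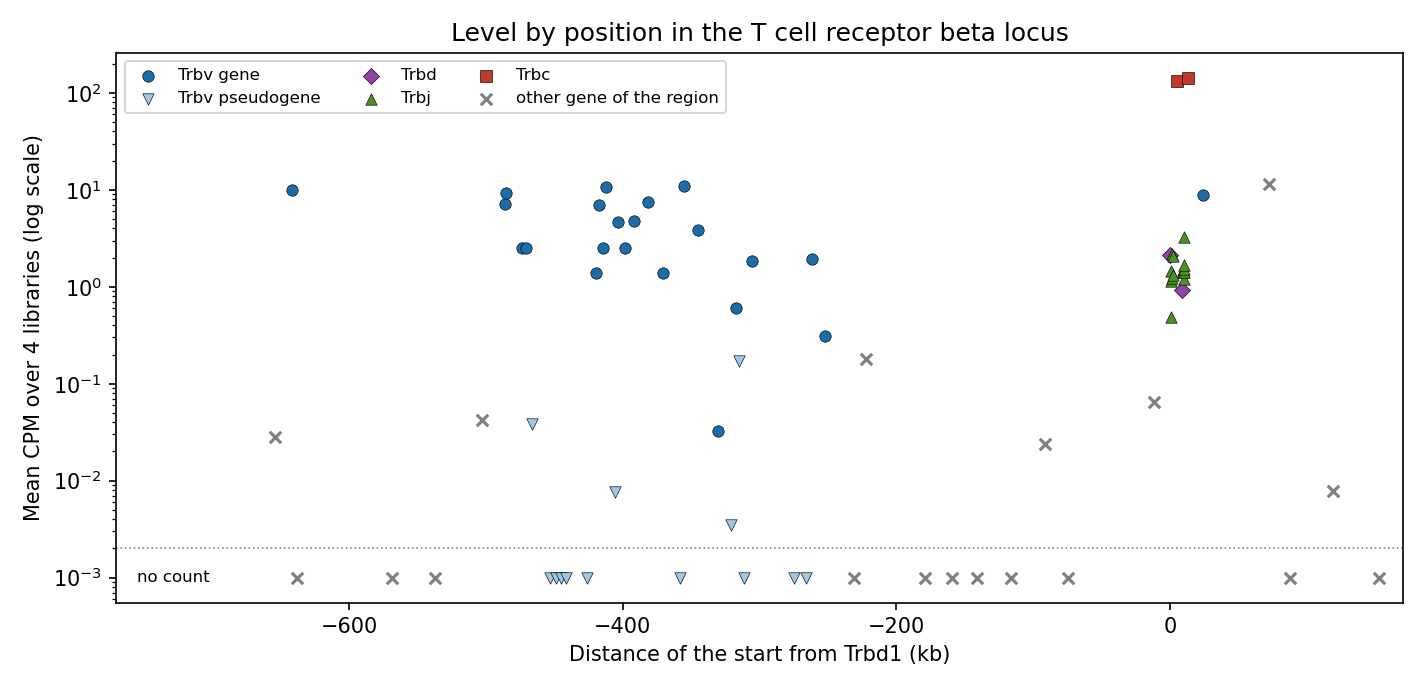
Mean CPM over 4 libraries (log axis) against the distance of each gene's start from Trbd1, for the 53 members by class and for other genes of the region. CPM are not adjusted for length. The 2 Trbc genes lie above 100 CPM, the Trbv genes stand up to 10.9 CPM on both sides of the D-J-C clusters, and 9 pseudogenes lie on the line for no count.

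Variable segments were compared by their share of the Trbv counts per kb of exon, since their exons are 335 to 566 bases long. The main setting for the share of the leading segment was the share of counts, with the share per kb as an alternative. By share of counts, Trbv13-2 was above Trbv19, the next segment in the mean, in 1 of 4 libraries. Per kb, the order was led by Trbv13-2, whose share per kb was 14.3, 12.6, 11.8 and 11.9% in replicates 1 to 4, or 12.6 ± 1.14% (SD, n = 4). Trbv1, the segment farthest upstream, followed with 10.4, 8.78, 8.79 and 10.1%. Both were ahead of the next segment in the order in all 4 libraries, by 3.12 ± 0.966 and 1.20 ± 0.637 percentage points.

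The inverted Trbv31 came next with 9.98, 7.07, 7.04 and 9.14%. It was higher in replicates 1 and 4 than in 2 and 3, as Trbv1 was. Trbv3 held 8.02, 7.28, 9.01 and 7.81%. Trbv13-1, of the same family as Trbv13-2, held 8.71, 6.85, 8.12 and 6.81%. These 3 overlapped one another and could not be put in order beyond their spread.

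Trbv19 showed the widest spread among the leading segments. Its share per kb was 5.05, 8.48, 7.74 and 8.59%, with replicate 1 below the others. As a share of all Trbv counts it was 7.15% (95% Wilson interval 6.39 to 7.98%) in replicate 1 and 11.8% (11.1 to 12.6%), 10.8% (10.2 to 11.4%) and 11.9% (11 to 13%) in the others. The interval of replicate 1 does not reach those of the other libraries, and these intervals cover counting error only. Trbv16 held 5.92, 6.71, 8.46 and 8.59% per kb. Replicates 3 and 4 were above replicates 1 and 2 for this segment.

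The 7 segments named so far held 61.0 ± 2.30% of the Trbv total per kb (62.3, 57.8, 61.0 and 62.9% in replicates 1 to 4). Lower shares followed after a step of 2.07 ± 1.33 percentage points that was seen in all 4 libraries. Trbv13-3 held 5.35 ± 0.386%, Trbv15 5.10 ± 0.559%, Trbv2 5.02 ± 0.715% and Trbv20 4.52 ± 1.23% per kb. After another step, of 1.80 ± 0.991 points and again in all 4 libraries, Trbv14, Trbv5, Trbv4, Trbv12-2, Trbv29, Trbv26, Trbv17 and Trbv12-1 ranged in the mean from 2.72 to 1.4%. Among the 18 steps in the order of these 19 segments, those 4 were the ones with the same direction in every library and with a mean above their SD. The order was set by the means of these same 4 libraries, so every mean step is positive by construction. The steps are therefore a description, and whether any exceeds chance was not tested. Neighbours at the other 14 steps did not differ beyond their spread. The order and its steps depend on the length correction: by share of counts alone, Trbv13-2 (12.1, 10.6, 9.87 and 9.92%) was above Trbv19 (7.15, 11.8, 10.8 and 11.9%) in 1 of 4 libraries, with a mean difference of 0.195 ± 3.23 percentage points, and 2 of 18 steps went the same way in every library.

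**Figure D2:**
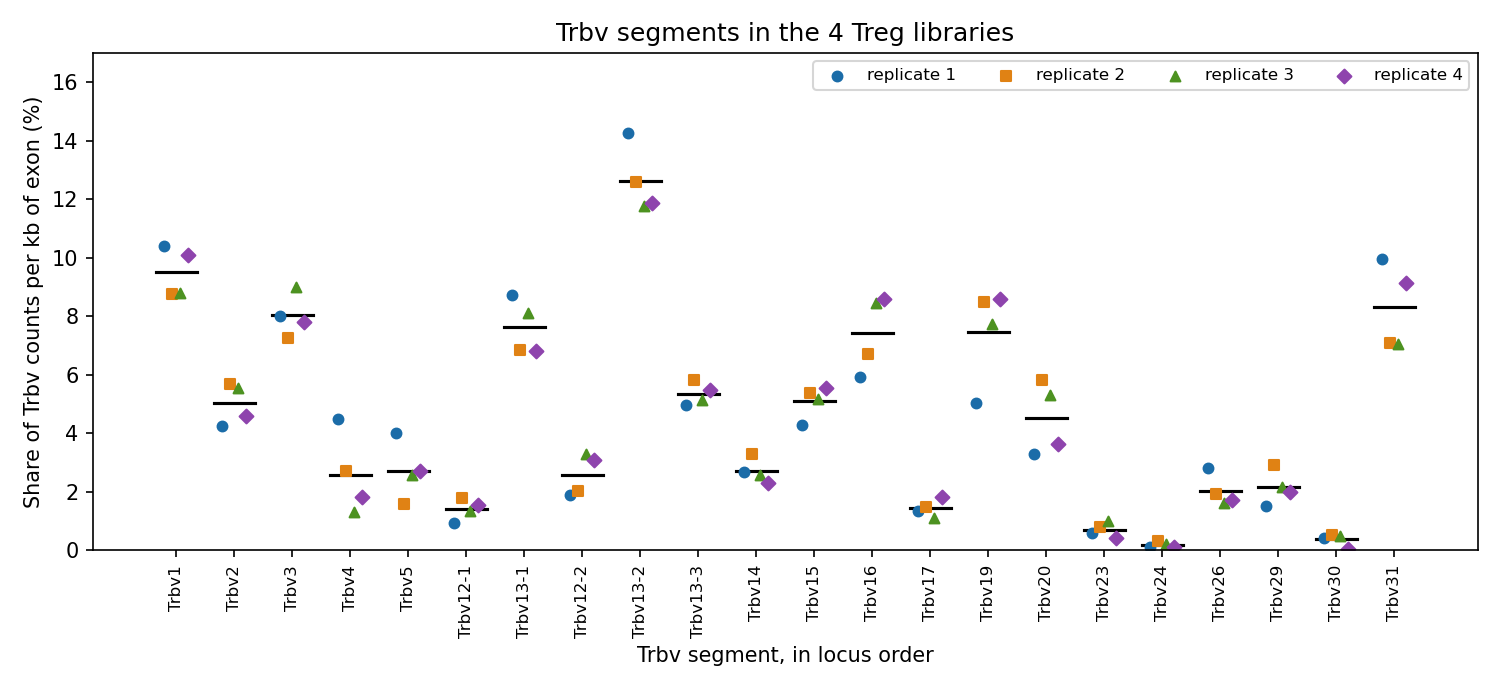
Share of Trbv counts per kb of exon (%) for each Trbv segment above 0.1% of counts, in locus order, with 1 point per library and the mean as a bar. Trbv13-2 stands highest in every library at 11.8 to 14.3%, and Trbv19 shows replicate 1 at 5.05% below the other 3.

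Segments of 1 family stood at different levels. Trbv13-2 and Trbv13-3 are the most alike pair of Trbv genes, 91.4% identical over their last 280 bases, where the median pair is 53.9% identical. Their levels were 103 ± 10.3 and 44.1 ± 8.35 TPM, and their shares per kb did not overlap between any libraries (11.8 to 14.3% and 4.96 to 5.84%). Trbv13-1, 88.2% identical to Trbv13-2, stood at 61.7 ± 2.84 TPM. Trbv12-1 and Trbv12-2 are 88.9% identical and stood at 11.7 ± 4.09 and 21.3 ± 7.31 TPM. At a length of 100 bases, none of these 5 segments shared a window with another gene. At 50 bases, Trbv13-2 and Trbv13-3 shared 1 window with each other, and Trbv12-2 shared 4 with the pseudogene Trbv12-3.

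Trbv4 and Trbv5 need a separate reading. A non-coding gene on the same strand, 5830405F06Rik, covers 75.1% of the exon bases of Trbv4 and 79.3% of those of Trbv5, and pairs that lie wholly in the covered part count for neither gene. That leaves 98 of 393 and 76 of 368 bases. Trbv4 had 180, 200, 117 and 69 counts and Trbv5 had 150, 108, 213 and 96. Divided by the uncovered bases alone, Trbv5 took 15.0, 6.67, 10.9 and 11.3% of the Trbv total and Trbv4 took 14, 9.58, 4.66 and 6.31%. Trbv5 then ranked 1 in the mean (11.0 ± 3.42%), ahead of Trbv13-2 (10.7 ± 0.429%), and Trbv4 ranked 3 (8.63 ± 4.11%), where per whole exon they ranked 13 and 14. This division treats every uncovered base alike, and the spreads of Trbv5 and Trbv13-2 overlap. The other gene itself had 25, 37, 56 and 24 counts. The places of Trbv4 and Trbv5 in the order therefore depend on how the covered bases are treated.

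At the low end, Trbv23 had 21, 51, 79 and 14 counts (0.603 ± 0.218% of Trbv counts) and Trbv30, the segment nearest to Trbd1 on the upstream side, had 15, 33, 38 and 2 (0.318 ± 0.180%). Trbv21, annotated as a gene, had 0, 1, 11 and 0 counts. It was the only Trbv gene without a count in every library.

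The 13 Trbv pseudogenes together had 4, 23, 17 and 10 counts, against 4068, 7532, 9114 and 3913 for the 22 genes. Trbv24 had most of them, with 4, 22, 17 and 4. Trbv6 had 5 counts in replicate 4, Trbv12-3 had 1 there and Trbv22 had 1 in replicate 2. The other 9 (Trbv7, Trbv8, Trbv9, Trbv10, Trbv11, Trbv18, Trbv25, Trbv27 and Trbv28) had none, which allows up to 0.0652, 0.0416, 0.0316 and 0.0919 CPM in replicates 1 to 4, the value of 3 counts. For Trbv8 a count of 0 says nothing, since AC153851.1 covers 100% of its exon bases, and 15.2% of those of Trbv10. Per kb of exon, genes exceeded pseudogenes by 7.72 ± 0.62 on the log2 scale, with 8.53, 7.16, 7.85 and 7.34 in replicates 1 to 4. As the mean of log2(CPM + 0.1) over segments the difference was 4.76, and without the length correction it was 8.86. The direction was the same in 4 of 4 libraries, and the exact two-sided sign-flip permutation test gave p = 0.13, the smallest that 4 libraries allow (0.25 after Benjamini-Hochberg adjustment over 4 contrasts).

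The effective number of Trbv segments, the inverse Simpson index of their shares of counts, was 13.6, 14.2, 13.8 and 13.4, or 13.7 ± 0.348 (SD, n = 4). It is the number of equally used segments that would give the same concentration. The ranks of the 22 Trbv genes were alike between libraries, with Spearman coefficients of 0.884 to 0.968 over the 6 pairs of libraries. Those of the 14 Trbj segments were less alike, at 0.015 to 0.727. Both are descriptions over segments, which share library, depth and length, and the Trbj segments rest on far fewer counts.

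The Trbd segments, which supply the middle of the third complementarity-determining region, are 12 and 14 bases long. Trbd1 had 103, 167, 203 and 62 counts, or 2.15 ± 0.181 CPM. Its CPM lay between 1.90 and 2.31 in all 4 libraries. Trbd2 had 29, 55, 73 and 51 counts, or 0.630, 0.762, 0.769 and 1.56 CPM. Replicate 4 was highest for Trbd2 and lowest for Trbd1. Levels per length are not given for segments this short, because a pair that overlaps them lies mostly outside them. Whether the pairs counted on Trbd segments came from rearranged chains was not tested.

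The Trbj segments are 46 to 54 bases long and had 8 to 314 counts per library. Trbj2-7, the last of its cluster, held the largest mean share of the Trbj counts. It had 232, 161, 314 and 84 counts, which made 23, 11.3, 14.3 and 11.2% of the Trbj counts (15.0 ± 5.58%). It was not the highest in every library: Trbj1-6 (15.9%) and Trbj2-6 (11.5%) were above it in replicate 2, and Trbj1-5 in replicate 4. Trbj1-5 followed in the mean with 8.04, 10.8, 9.65 and 11.5%. Trbj1-1 was lowest in the mean, with 1.49, 3.78, 2.69 and 1.07%, though Trbj1-2 was lower in replicate 1 (1.19%) and Trbj2-4 in replicate 2 (2.17%). The other Trbj segments lay between 5.21 and 9.70% in the mean.

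Several Trbj segments differed widely between libraries. Trbj1-2 had 12 counts in replicate 1 and 94, 114 and 59 in the others, or 0.261 CPM against 1.30, 1.20 and 1.81. Trbj2-4 had 98, 31, 152 and 48 counts, or 2.13, 0.430, 1.60 and 1.47 CPM, so that replicate 2 was the low library. Trbj1-6 made 15.9% of the Trbj counts in replicate 2 and 7.45, 8.38 and 7.06% in the others. In replicate 1, Trbj2-7, Trbj2-5 (11.0%) and Trbj2-4 (9.73%) were each at their highest share. The effective number of Trbj segments was 9.07 in replicate 1, against 11.0, 12.4 and 12.5.

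**Figure D3:**
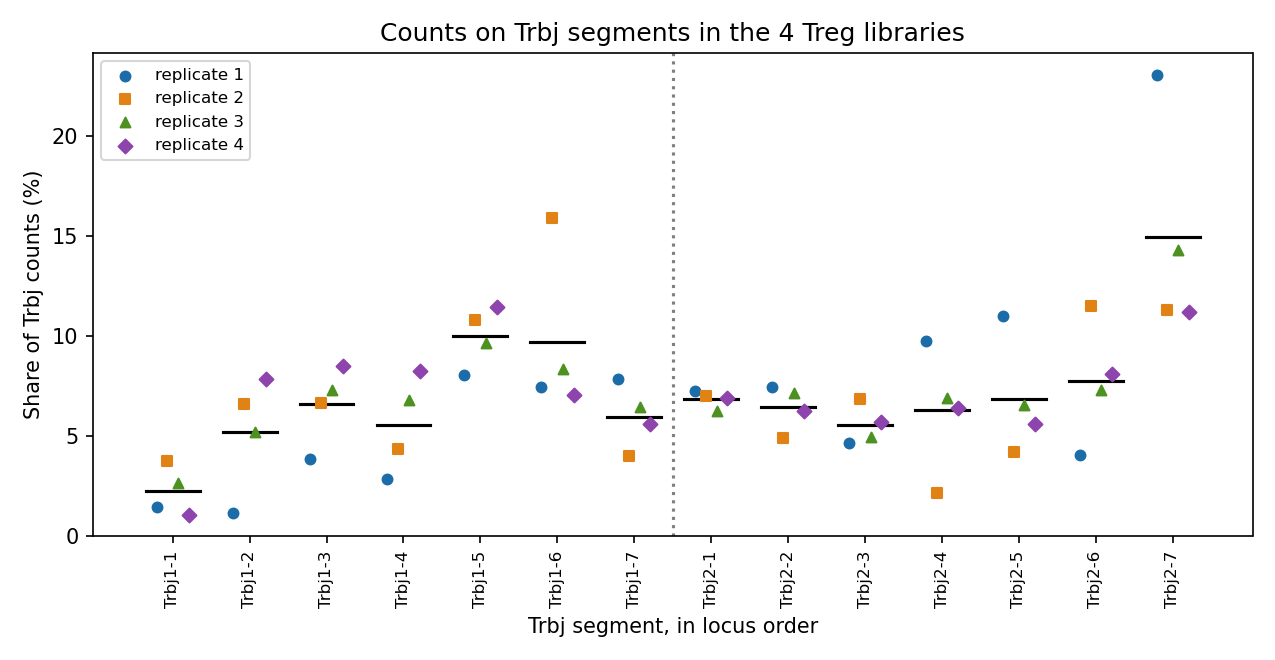
Share of Trbj counts (%) for the 14 Trbj segments in locus order, with 1 point per library, the mean as a bar and a dotted line between the Trbj1 and Trbj2 clusters. Replicate 1 stands at 23% for Trbj2-7 and at 1.19% for Trbj1-2, and replicate 2 at 15.9% for Trbj1-6.

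In the mean, segments without the joining motif held a share near their share of the segments, but in replicate 2 they held more. Trbj1-6, Trbj1-7 and the pseudogene Trbj2-6 held 19.4, 31.4, 22.2 and 20.8% of the Trbj counts (23.4 ± 5.43%), and they are 21.4% of the segments. The 95% Wilson interval of replicate 2 was 29.0 to 33.8%, and those of the other libraries held 21.4%. Trbj1-7 went the other way, with 7.85, 3.99, 6.47 and 5.59%. The higher share in replicate 2 therefore lay in Trbj1-6 (15.9%) and Trbj2-6 (11.5%). Trbj1-6 and Trbj1-7 are annotated as genes, but an annotation does not show function, which was not tested for any Trbj segment. Trbj2-6 alone had 41, 164, 161 and 61 counts, or 7.75 ± 3.05%. The annotated pseudogenes of the Trbv class, by contrast, held 0.0982, 0.304, 0.186 and 0.255% of the Trbv counts. How many of the pairs on Trbj segments came from rearranged chains was not tested.

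The clusters as wholes were compared within each library. The Trbj1 cluster had 330, 743, 1022 and 374 counts and the Trbj2 cluster 677, 684, 1174 and 377. The share of Trbj2 was 67.2% (95% Wilson interval 64.3 to 70.1%), 47.9% (45.3 to 50.5%), 53.5% (51.4 to 55.5%) and 50.2% (46.6 to 53.8%). The interval of replicate 1 did not overlap the others, nor did those of replicates 2 and 3 overlap each other, on counting error alone. Per kb, Trbj2 minus Trbj1 was 1.06, -0.09, 0.23 and 0.04 on the log2 scale, a mean of 0.31 ± 0.52 (exact sign-flip permutation test, two-sided, p = 0.375, adjusted 0.375). Without replicate 1 the mean was 0.06. No difference between the clusters beyond the spread of the libraries was found.

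Trbc1 had 6111, 10071, 12355 and 3978 counts, or 131 ± 7.33 CPM and 566 ± 35.8 TPM. Trbc2 had 6834, 9321, 13416 and 4928 counts, or 142 ± 9.75 CPM and 666 ± 39.5 TPM. Per kb, Trbc2 minus Trbc1 was 0.28, 0.00, 0.23 and 0.42 (mean 0.23 ± 0.17 on the log2 scale, exact sign-flip permutation test, two-sided, p = 0.13, adjusted 0.25). The value was above 0 in 4 of 4 libraries, by almost nothing in replicate 2. In counts, Trbc2 made 52.8, 48.1, 52.1 and 55.3% of the Trbc total, so that replicate 2 had fewer pairs on Trbc2 than on Trbc1. Per unshared 50-base window, an alternative chosen after seeing the data, the mean was 0.29. Replicate 2 was the lowest of the 4 libraries both for Trbc2 over Trbc1 and for Trbj2 over Trbj1, but replicate 1, which was highest for Trbj2 over Trbj1, was not highest for Trbc2 over Trbc1.

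**Figure D4:**
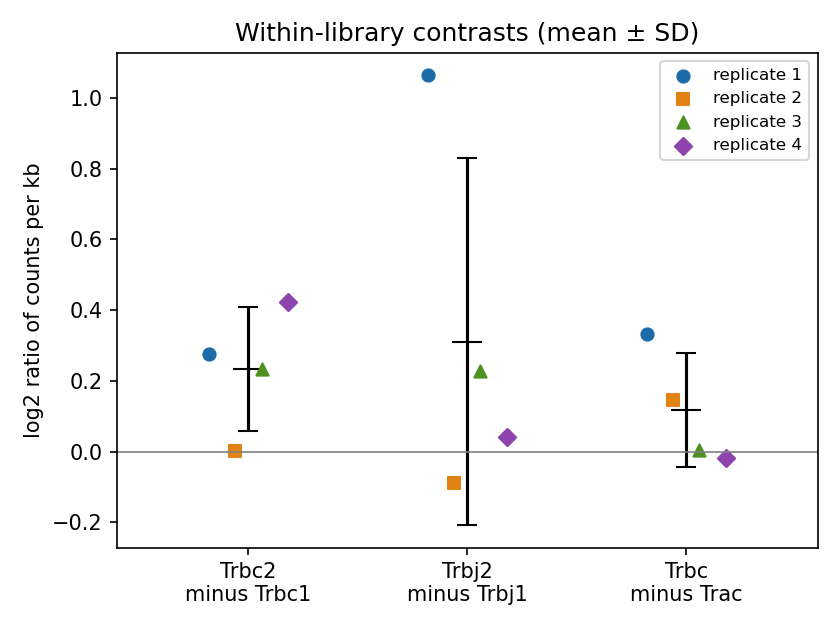
Log2 ratio of counts per kb within each library for Trbc2 over Trbc1, Trbj2 over Trbj1 and Trbc over Trac, with 1 point per library and the mean ± SD (n = 4). Replicate 1 stands at 1.06 for the Trbj clusters while the other 3 lie between -0.09 and 0.23.

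The beta constant genes were set against Trac, the constant gene of the alpha chain with which the beta chain pairs. Trac stood at 1138 ± 116 TPM. The log2 ratio of the sum of Trbc1 and Trbc2 to Trac, per kb, was 0.33, 0.15, 0.01 and -0.02 (mean 0.12 ± 0.16, exact sign-flip permutation test, two-sided, p = 0.375, adjusted 0.375). Without the length correction the sign turned to -0.26, so no order of the 2 chains is given. Alpha variable (Trav) segments held 52.2 ± 5.92 CPM and Traj segments 7.94 ± 1.64 CPM.

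RNA of the CD3 subunits, the partners of the receptor, was present. Of the 13 genes in the list of receptor chains and CD3 subunits, 10 were in the files under these names and 7 reached 1 TPM in every library. The 7 include Trdc and Tcrg-C2, which belong to the gamma-delta receptor and are not partners of the beta chain. The CD3 subunits, which carry the signalling motifs, stood at 331 ± 38.4 TPM (Cd3d), 173 ± 11.6 TPM (Cd3e) and 126 ± 8.97 TPM (Cd3g), and Cd247, the zeta chain, at 94.6 ± 3.47 TPM. Ptcra, the surrogate alpha chain of immature thymocytes, had no count. Trdc, the delta constant gene, stood at 1.44 ± 0.305 TPM and Tcrg-C2 at 1.77 ± 0.819 TPM.

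Most genes of the recombination machinery were present, but hardly the recombinase itself. Of the 13 genes of that list, 10 reached 1 TPM in every library. Rag2 had no count, and Rag1, its partner in the recombinase, had 5, 1, 32 and 3 counts, with replicate 3 highest. Dntt, the terminal transferase that adds untemplated bases at the joins, had 21, 116, 91 and 18 counts. The general end-joining factors Xrcc5 and Xrcc6 stood at 89.8 ± 1.81 and 64.3 ± 1.81 TPM, and Lig4, the ligase, at 5.88 ± 0.556 TPM. Of 19 other genes inside and beside the locus, 11 had no count, and Ephb6, a receptor-like protein downstream of the locus, was the one above 1 TPM in every library (9.91 ± 1.34 TPM). Prss2, the trypsinogen gene next to Trbd1, had 0, 2, 22 and 0 counts.

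Each gene was tested for more variation between the 4 libraries than genes of its level show (edgeR one-sided goodness of fit to the trended dispersion). Of 13478 genes tested, 51 were called at an adjusted p under 0.05, which is 0.378%. Among the alternatives the share called was 0.378% with DESeq2 size factors, 0.17% without a filter, 0.561% with a mean of 1 CPM or more and 0.111% with limma, and without replicates 1 to 4 in turn it was 0.121, 0.42, 0.173 and 0.237%. Of the 53 members, 38 had enough counts to be tested and 0 were called by edgeR, and 0 by limma or under the other alternatives. At an unadjusted p under 0.05 there were 5 members by edgeR and 4 by limma, where 805 of all genes (5.97%) passed by edgeR and 648 (4.81%) by limma. By edgeR these 5 were Trbv19 (adjusted p = 0.150), Trbj1-2 (adjusted p = 0.433), Trbj2-4 (adjusted p = 0.556), Trbv4 (adjusted p = 0.763) and Trbv16 (adjusted p = 0.831). Trbv19 ran from 6.32 CPM in replicate 1 to 14.3 CPM in replicate 4, a ratio of 2.27. Trbj1-2 ran over a ratio of 6.93.

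The median test statistic of the 38 members was 3.31, beside 2.11 over all genes tested and 3.37 over the 41 alpha-chain segments tested, of which 0 were called and 3 had an unadjusted p under 0.05 by edgeR. Replicate 1 was the library farthest from the mean for 17 of the 38 members, where it was so for 33.8% of all genes and for 32 of the 51 called genes. The SD of log2 CPM was 0.08 for Trbc1 and 0.11 for Trbc2, beside 1.17 for Trbj1-2 and 0.51 for Trbv19. These SDs are not adjusted for level, and Trbj1-2 had 12 to 114 counts per library. Against genes of their own level, the test statistic was 1.58 for Trbc1 and 3.46 for Trbc2, below and above the median over all genes.

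**Figure D5:**
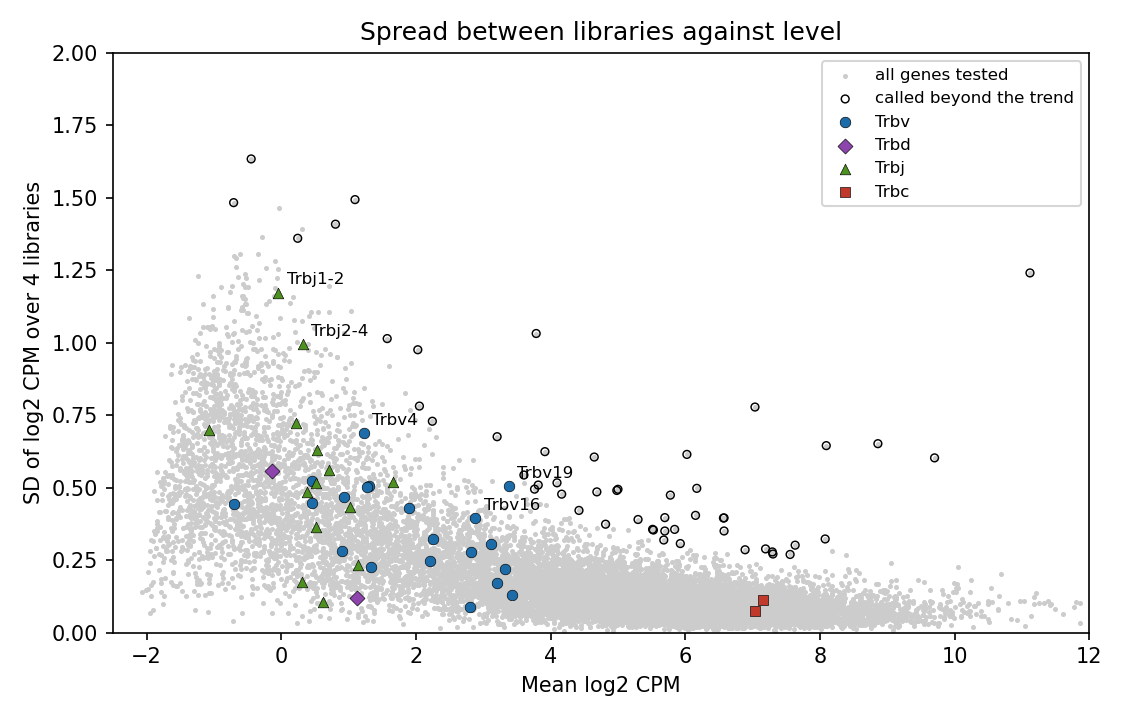
SD of log2 CPM over 4 libraries against mean log2 CPM for all 13478 genes tested (grey), the 51 called genes (circles) and the 38 members by class. Another 6 genes lie outside the axes. Trbj1-2 has an SD of 1.17, and the 2 Trbc genes lie at the lower right among genes of high level and low SD.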

How the data were processed

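The 4 libraries of the single Treg group were deposited as whole-number read pair counts per gene, made by the authors with featureCounts 1.4.6-p4 from STAR alignments and the GENCODE M13 annotation, with both ends mapped and the reverse strand, per the file headers. Neither multimapping pairs nor pairs shared between genes were asked for in that command, so near-identical and overlapping segments are undercounted. Read length is not given in the sources used here. Per the labels the build is mm10. Exon lengths came from the deposited files.

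Symbols, biotypes and transcript sequences came from GENCODE M21 (50376 of 50600 identifiers matched), and all 53 members had the same span there. CPM, TPM and shares were computed here from the deposited counts. The depth per library puts a floor of 3 counts at 0.0652, 0.0416, 0.0316 and 0.0919 CPM. Variation was tested in edgeR 4.0.16 (filterByExpr with a minimum count of 10, TMM, intercept only, trended dispersion, Benjamini-Hochberg over 13478 genes) after a test on simulated data, with limma 3.58.1 (log2 CPM, prior count 2) and DESeq2 1.42.0 size factors as alternatives. Contrasts within a library used exact sign-flip permutation tests. Other alternatives were the length correction, a count filter, another diversity index and leaving out each library. The members, gene lists and tests were chosen with earlier results of these data known. By rule, Trbv segments with a mean share of 1% or more, Trbd, Trbj and Trbc were named, with members that the tests picked out and, beyond the rule, the other Trbv segments with few or no counts. The result of 1 further marker is not reported here.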

Additional observations from a re-analysis of the deposited data

Results flagged for a closer look

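Among 52 values of single members examined over the 4 libraries, 3 had a library farther from the other 3 than Dixon's test allows at the 95% level, and chance picks out about 1 in 20 groups. The share of Trbv21 among Trbv counts was 0.120% in replicate 3 and 0, 0.0132 and 0% in replicates 1, 2 and 4, on 11, 0, 1 and 0 counts. The share of Trbj1-6 among Trbj counts was 15.9% in replicate 2 and 7.45, 8.38 and 7.06% in replicates 1, 3 and 4. Trbd2 stood at 1.56 CPM in replicate 4 and at 0.630, 0.762 and 0.769 CPM in replicates 1 to 3.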

How the results depend on the processing

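Without the length correction, Trbc minus Trac turned from 0.12 to -0.26 (log2, exact sign-flip permutation p = 0.13), because Trac has a longer exon than the mean used for Trbc. The effective number of Trbv segments moved from 13.7 to 14.2 with shares per kb, to 16.1 with the exponential of Shannon entropy and, in alternatives chosen after seeing the data, to 14.2 per uncovered kb and to 12.7 without Trbv4 and Trbv5. The share of Trbv13-2 moved from 10.6 to 12.6% per kb, and 5 of the 19 named Trbv segments moved by more than the spread of their libraries under that change. The number of genes called for variation was 51 by edgeR, 15 by limma and 17 to 56 when each library was left out in turn (17 without replicate 1 and 23 without replicate 3), while 0 members were called under any of these settings. The lowest adjusted p of a member under any edgeR or limma setting was 0.122 (Trbv19, without replicate 2). Trbj2 minus Trbj1 was 0.06 to 0.44 when each library was left out. No paired analysis of groups was possible because there is 1 group, and the contrasts above are within a library. Depth limits the members with few counts, such as Trbv30 with 2 to 38 and the Trbj segments with 8 to 314 per library, and 4 libraries allow no sign-flip p under 0.13.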
